A study of Homo sapiens with 26 samples.

Results

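The expression of genes in A549 cells after 8 h with TGF-beta was compared with that in untreated cells. A549 is an established human lung adenocarcinoma line of epithelial origin, obtained by the submitters from a cell collection. All cells, the untreated ones included, were kept without serum for 24 h. Treated cells then received porcine TGF-beta 1 at 5 ng/mL for 8 h. The 6 arrays labelled in these ways, 3 of untreated cells and 3 of cells treated for 8 h, were taken from the 26 arrays of a time course of 9 groups, one of which is the untreated group. RNA from each culture was hybridised to an Affymetrix HG-U133 Plus 2.0 array, and arrays numbered 1 to 3 within a group come from 3 repeats of the experiment. No untreated culture of the same age is among the labels, so 8 h of treatment and 8 h more without serum cannot be told apart. The groups at 4 h and 16 h, 3 arrays each, served to show what was new at 8 h and what was still to come.

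TGF-beta is a secreted cytokine that binds a pair of receptor kinases, which phosphorylate SMAD2 and SMAD3. These proteins enter the nucleus with SMAD4 and switch target genes on or off, among them genes for inhibitors of the same pathway. In epithelial cells the cytokine is known for arresting growth, for inducing matrix proteins and for starting the epithelial-mesenchymal transition, in which cells lose E-cadherin junctions and take up a contractile, migratory state.

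Values are given below on the log2 scale of the deposited signals. On that scale a signal of zero lies at 6.64, the lowest possible value is 5.64, and the median probe set lies at 7.96 on every array. An offset of 100 inside the logarithm understates the folds of weakly expressed genes. Changes are 8 h minus untreated in log2 units ± limma's standard error, with 3 arrays per group, and a gene was called when its Benjamini-Hochberg p-value over 14771 genes was below 0.05. On the untreated arrays 29966 to 31904 of 54675 probe sets were detected, and on the 8 h arrays 30472 to 31808. Signal of the 3' actin probe set over the 5' one was 1.072 to 1.13 in untreated cells and 1.017 to 1.036 at 8 h, so this sign of RNA quality differed between the groups, and its part in the results was not tested. Arrays of one group correlated at 0.959 to 0.978 (untreated) and 0.976 to 0.985 (8 h), and arrays of different groups at 0.926 to 0.95. Of 10 markers of A549 and lung epithelium, 9 lay above the array median in both groups. KRT19, an epithelial keratin, did not, with a mean of 6.6 over all arrays. The summed signal of these markers was 203224 to 213700 in untreated cells and 211621 to 217314 at 8 h. Of 8 fibroblast markers 1 lay above the array median in each group, with sums of 657 to 949 against 525 to 902. Of 6 endothelial markers it was 3 in untreated cells and 1 at 8 h (545 to 750 against 433 to 698), of 7 leukocyte markers 2 and 3 (744 to 1641 against 1160 to 1864), and of 7 markers of alveolar type II cells 3 and 2 (700 to 920 against 659 to 923). Sums over different probe sets have no common scale and were compared only between the groups. No tested marker of these 4 cell types was called. NKX2-1 and SFTPB, markers of alveolar type II cells, and the leukocyte marker PTPRC failed the filter on low values.

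At 8 h, 3413 of 14771 genes, 23.1 percent, differed from untreated cells, 1697 of them higher (11.5 percent of all genes) and 1716 lower (11.6 percent). Counts of members called against untreated cells in each gene list and family below are to be read against these shares. A change of at least 2-fold was found for 546 of the higher genes (3.7 percent of all genes) and 341 of the lower ones (2.31 percent). In bulk RNA, fewer cells with a transcript and less of it per cell cannot be told apart. The 3 treated arrays lay beyond all 3 untreated arrays for 1611 of the 1697 higher genes (94.9 percent) and 1574 of the 1716 lower ones (91.7 percent), while over all genes 15.6 percent were separated upwards and 16.7 percent downwards. Calls and separation come from the same arrays, so the separation is no independent evidence for the calls. The 8 h arrays were not equally far from the untreated mean. Array 3, which carries an r in the authors' tables, was the nearest of the 3 for 920 of the higher genes and 907 of the lower ones, and its median change was 0.67 in the higher genes, where arrays 1 and 2 both had 0.78. In the lower genes the medians were -0.53 for array 3 and -0.63 for both others. Without 8 h array 3, 1605 genes were higher and 1584 lower. For 365 of the higher genes the mean at 8 h was the highest of all 9 groups, and for 416, 316 and 418 that place was taken by 16, 24 and 72 h. Of the lower genes, 406 were lowest at 8 h and 434 at 16 h.

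The genes that rose most were a mixed group of signalling, matrix and transcription genes, led by MAF, ANGPTL4 and MYOCD. MAF is a transcription factor, ANGPTL4 an inhibitor of lipoprotein lipase, and MYOCD a coactivator of serum response factor that drives smooth muscle genes. MAF was at 7.83, 7.24 and 6.55 on untreated arrays 1 to 3 and at 12.49, 12.16 and 12.36 on the 8 h arrays, a change of 5.13 ± 0.57 (adjusted p = 1.02e-06). IL11, a cytokine of the interleukin-6 family, went from 7.38, 6.92 and 7.19 to 11.86, 12.19 and 10.31, a 19.6-fold change with 8 h array 3 well below the other two. RASGRP1, an exchange factor that activates Ras, was 17.9-fold higher, with 8.14, 7.66 and 7.97 in untreated cells and 12.41, 12.29 and 11.55 at 8 h. ANGPTL4 had a ratio of 34.8 in the authors' deposited table. The large rises other than those of MAF and ANGPTL4 lay between 12.6-fold and 24.1-fold. They included PPP1R14C, an inhibitor of protein phosphatase 1 (17.5-fold), PLEK2, a pleckstrin family protein of the cell cortex (15.4-fold), and S1PR5, a receptor for sphingosine 1-phosphate (12.6-fold). NAV2, a cytoskeletal protein of the navigator family, rose 13.5-fold on the chosen probe set, and 2 of its 4 tested probe sets were called higher. FAM43A rose 12.6-fold.

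Among the falls, CCL20, a chemokine that attracts cells bearing CCR6, stood at 11.38, 10.7 and 12.08 in untreated cells. On 8 h arrays 1 and 2 it was at the floor of 5.64 and on array 3 at 8.22, a fitted change of -4.89 ± 0.70 (adjusted p = 2.27e-05) that is limited by the floor. KIT, the receptor for stem cell factor, fell from 10.77, 11.75 and 11.21 to 6.77, 7.4 and 8.0, and its ligand KITLG fell as well, from 11.29, 11.3 and 10.74 to 8.94, 8.6 and 9.25. Receptor and ligand were thus 14.5-fold and 4.53-fold lower, with no overlap between the groups for either. SLC51B, a subunit of a basolateral bile acid and steroid transporter, was 9.61-fold lower. PDK4, a kinase that inhibits pyruvate dehydrogenase, was 8.47-fold lower, and RDH10, which oxidises retinol on the path to retinoic acid, was 7.83-fold lower. ST8SIA4, a polysialyltransferase, was 8.05-fold lower with all 4 probe sets called lower. The same direction was found for C9orf152 (8.58-fold), TM4SF20 (8.32-fold) and RGCC (7.02-fold), a gene known as a regulator of the cell cycle.

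**Figure D1:**
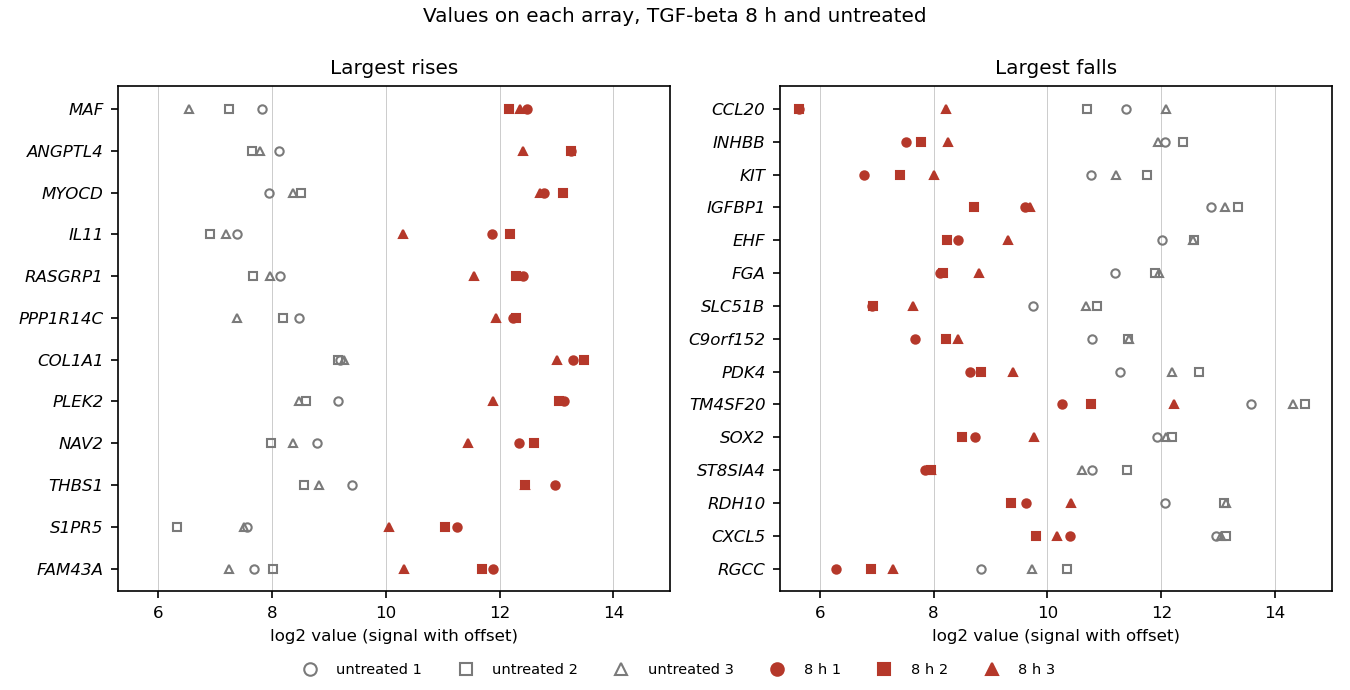
Log2 values (horizontal axis) of 12 of the 15 genes with the largest rises (left) and the 15 with the largest falls (right) at 8 h against untreated. Each point is 1 array, open grey for untreated and filled red for 8 h, with circles, squares and triangles for arrays 1, 2 and 3; no gene's groups overlap, as the rule for choosing them required, and for IL11, PLEK2 and TM4SF20 the 8 h triangle lies nearest to the untreated points.

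The question of how far the direct response had run was addressed with 29 known targets and feedback genes of TGF-beta, of which 28 were tested. Of these, 21 were higher and none lower, against 11.5 percent higher among all genes, and their median change was 1.34 where that of all genes was -0.03. The feedback inhibitor SMAD7 went from 9.82, 9.27 and 9.25 to 11.84, 11.57 and 11.5 (2.19 ± 0.38, adjusted p = 0.000176). SKIL, a corepressor of SMADs, rose from 10.32, 10.12 and 10.11 to 12.48, 12.65 and 12.11. Both inhibitors were therefore well above untreated cells on all 3 arrays. Neither was called by limma between 4 h and 8 h (0.09, adjusted p = 0.956 for SMAD7, and 0.22, adjusted p = 0.83 for SKIL), which does not show that they were unchanged. No target on the list was called by limma between 4 h and 8 h in either direction, where 2.34 percent of all genes were, and at an unadjusted p under 0.05 there were 8 higher and 0 lower. Against untreated cells 1 target was called lower with the experiment number as a block, or without 8 h array 3.

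Ligands, receptors and extracellular inhibitors of the family moved in both directions, 12 higher and 4 lower of 30 tested. INHBB, which encodes the beta B subunit of activins and inhibins, fell 19.5-fold, from 12.06, 12.38 and 11.95 to 7.51, 7.78 and 8.26 (-4.28 ± 0.36, adjusted p = 4.14e-08). Follistatin (FST), a secreted protein that binds and neutralises activin, rose from 7.99, 8.8 and 8.41 to 11.76, 11.57 and 12.02, a 10.4-fold change. FSTL3, a related activin-binding protein, rose 4.81-fold, from 9.92, 9.54 and 9.3 to 12, 11.9 and 11.67. INHBB was thus lower, and the 2 activin-binding proteins higher, on every treated array. INHBA, which encodes another activin subunit, had a ratio of 2.04 in the authors' deposited table. The p-value there, from their model with experiment and time, was 0.0497 without adjustment. It cannot be set against the adjusted p-values used for the other genes, so no direction is concluded for INHBA. BMPR2, the type II receptor of bone morphogenetic proteins, was 3.82-fold higher with all 5 probe sets called.

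Transcription factors known from the transition differed among themselves. Of 14 tested, 6 were higher and 2 lower, with a median of 0.43, and ZEB2 and TWIST1 failed the filter, with means of 6.93 and 7.0 over all arrays. SNAI2 (Slug), a repressor of E-cadherin, was at 7.59, 7.89 and 7.02 in untreated cells and at 10.0, 9.64 and 9.41 at 8 h, 4.53-fold higher (2.18 ± 0.34, adjusted p = 6.12e-05). SNAI1 (Snail) was at 7.48, 8.1 and 8.03 against 8.04, 8.45 and 7.95, so that the groups overlapped (0.27 ± 0.27, adjusted p = 0.52). ZEB1 was at 8.2, 8.58 and 8.83 against 8.27, 8.9 and 9.11 (0.22 ± 0.28, adjusted p = 0.629). These p-values do not show that SNAI1 and ZEB1 were unchanged. Among the lower genes was TWIST2, a basic helix-loop-helix factor related to TWIST1, named here after its values were seen. TWIST2 was at 10.12, 9.91 and 9.55 against 8.94, 8.83 and 8.8 (-1.0 ± 0.19, adjusted p = 0.000423), with 1 of its 2 probe sets called. The lower count was 1 without untreated array 1 or in the mean of probe sets. ETS1, a factor of the ETS family, was 2.27-fold higher. HMGA2, a chromatin protein known to act in the transition, was 2.0-fold higher on its chosen probe set, but the call was lost without untreated array 3 (adjusted p = 0.0538) and in the mean of its 3 probe sets (adjusted p = 0.0772).

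Factors that maintain epithelial fate gave a split picture, 6 lower and 4 higher of 17 tested. EHF, an epithelial ETS factor, fell 13.3-fold, from 12.02, 12.57 and 12.56 to 8.43, 8.24 and 9.3, with all 7 probe sets called lower. SOX2, a factor of airway progenitors and squamous tumours, was at 11.92, 12.19 and 12.09 against 8.73, 8.49 and 9.77, an 8.37-fold difference. CEBPD, a factor of the acute-phase response and of lung differentiation, went from 12.34, 12.42 and 12.74 to 9.9, 9.85 and 9.94. ELF3, another epithelial ETS factor, was 2.86-fold lower and fell further from 8 h to 16 h (-1.24, adjusted p = 0.0412). The 4 higher calls depended on the setting and numbered 1 without untreated array 3 or without 8 h array 3.

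Of 26 tested AP-1 and immediate-early genes, 8 were higher, 4 lower and 14 not called. JUN, a subunit of AP-1, rose from 9.13, 9.69 and 9.67 to 13.23, 12.95 and 13.1 (12.1-fold, all 4 probe sets), and JUNB rose 8.62-fold, from 10.0, 9.61 and 9.96 to 13.1, 13.06 and 12.74. FOS, the usual partner of JUN, was lower, at 9.65, 10.33 and 10.38 against 8.03, 8.63 and 8.97 (-1.58 ± 0.38, adjusted p = 0.00349). The 2 JUN genes and FOS thus moved in opposite directions. None of the 3 was called between 4 h and 8 h, which does not show that they were unchanged. IER2, an immediate-early gene, was 3.05-fold higher. Of the ID proteins, which bind basic helix-loop-helix factors and keep them from DNA, ID1 was 2.59-fold and ID3 3.18-fold higher. ID2 and ID4 each had a ratio of 1.04 in the authors' deposited table. The list of ID and related inhibitors counted 6 higher and 0 lower of 10, but 3 higher without untreated array 3. The Notch list counted 6 higher and 1 lower of 15. LFNG, the glycosyltransferase Lunatic fringe that modifies Notch, was 4.61-fold higher, and MAML2, a coactivator of Notch, was 2.79-fold higher. The Notch targets HES1 (1.36 ± 0.48, adjusted p = 0.0422) and HEY1 (1.29 ± 0.44, adjusted p = 0.0357) were called, but HES1 lost its call whichever of the 6 arrays was left out, and HEY1 without untreated arrays 1 or 3 or 8 h arrays 2 or 3. Without 8 h array 3 the Notch list counted 3 higher.

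Junction genes of epithelia were called in both directions at 8 h. CDH1, which encodes E-cadherin, was at 13.1, 13.09 and 13.09 in untreated cells and at 12.44, 12.67 and 12.68 at 8 h, 1.41-fold lower (-0.50 ± 0.17, adjusted p = 0.0323). The treated arrays all lay below the untreated ones, yet the call was lost without any one of the 3 untreated arrays or 8 h arrays 1 or 2, with adjusted p from 0.0554 to 0.133. From 8 h to 16 h CDH1 fell by 1.68 (adjusted p = 2.22e-06). Of 20 tested genes for adhesion and desmosomes, CDH1 was the 1 called lower and 7 were higher, where 11.6 percent of all genes were lower and 11.5 percent higher. DSC2, the desmosomal cadherin desmocollin 2, rose 3.43-fold, from 9.25, 9.56 and 8.89 to 11.27, 11.25 and 10.51. JUP (plakoglobin, 1.87-fold), LAMB3 (a chain of an epithelial laminin, 2.21-fold) and CTNNA1 (alpha-catenin, 1.43-fold) were also higher. EPCAM, an epithelial adhesion molecule, was at 11.16, 10.96 and 11.36 against 11.36, 11.23 and 10.58 (-0.10 ± 0.29, adjusted p = 0.847), and its difference was 0.14 without 8 h array 3.

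Tight junction and polarity genes counted 4 higher and 3 lower of 21, near the shares of all genes (11.5 and 11.6 percent). CLDN4, which encodes the tight junction protein claudin 4, rose 4.7-fold, from 8.41, 8.1 and 8.25 to 10.53, 10.71 and 10.23. TJP3 (zonula occludens 3) was 2.26-fold lower. PARD6B, a polarity protein, and CXADR, a junctional adhesion molecule known as the receptor of coxsackievirus and adenovirus, were 1.67-fold and 1.7-fold lower. Both lost the call in the mean of their probe sets, PARD6B also without 8 h array 2 (adjusted p = 0.0565), and CXADR without untreated array 2 or 8 h arrays 1 or 2. From 8 h to 16 h 5 of the 21 fell and none rose, where 3.38 percent of all genes fell and 1.99 percent rose. No probe set of the occludin gene OCLN entered the gene test.

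KRT8 and KRT18, which pair in the filaments of simple epithelia, were not called. KRT8 was at 14.8, 14.4 and 14.51 against 14.78, 14.78 and 14.78 (0.21 ± 0.08, adjusted p = 0.0542, and 0.0238 with the experiment number as a block). Without untreated array 1 its change was 0.33 (adjusted p = 0.00133), and it was also called with a stricter filter (adjusted p = 0.0484), median centring (adjusted p = 0.0381) or a second quantile normalization (adjusted p = 0.0416). KRT18 was at 15.22, 15.17 and 15.23 against 15.26, 15.28 and 15.22 (0.05 ± 0.04, adjusted p = 0.474). Of 9 keratins tested, KRT80 (5.78-fold), KRT7 (1.7-fold) and KRT81 (1.29-fold) were higher and none lower, and without untreated array 1 the higher count was 5. KRT80 went from 10.54, 8.86 and 9.55 to 12.46, 12.27 and 11.81, and KRT81 lost its call without untreated array 2 or 8 h array 2.

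Mesenchymal markers were higher in part, with 9 higher, 1 lower and 12 not called of 22 and a median of 0.39. CDH2, which encodes N-cadherin, was at 8.62, 7.29 and 7.83 against 10.07, 9.55 and 9.64, 3.58-fold higher (1.84 ± 0.27, adjusted p = 3.2e-05), and it also rose between 4 h and 8 h (1.41, adjusted p = 0.00769) and between 8 h and 16 h (1.05, adjusted p = 0.025). VIM (vimentin) was at 14.43, 13.65 and 13.79 against 14.68, 14.62 and 14.47, a change of 0.63 ± 0.14 (adjusted p = 0.00211). FN1 (fibronectin) was at 12.4, 13.85 and 12.92 against 13.45, 13.53 and 13.69, and its groups overlapped (0.50 ± 0.26, adjusted p = 0.189). Untreated array 2 held the highest of all 6 FN1 values, and without it the change was 0.90 (adjusted p = 0.00755). TAGLN, which encodes the smooth muscle protein transgelin, was at 8.01, 7.57 and 7.72 against 10.46, 10.26 and 8.82, with 8 h array 3 much nearer to the untreated arrays than the others. Its change was 2.08 ± 0.42 (adjusted p = 0.000783), nearly all of it after 4 h (1.88, adjusted p = 0.0184). SERPINE2, a protease inhibitor also called nexin 1, was 3.12-fold higher. ACTA2, alpha smooth muscle actin, was at 10.81, 10.95 and 10.66 against 10.48, 10.65 and 10.64 (-0.22 ± 0.16, adjusted p = 0.386), and the mean of its probe sets was lower (-0.30, adjusted p = 0.0429).

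**Figure D2:**
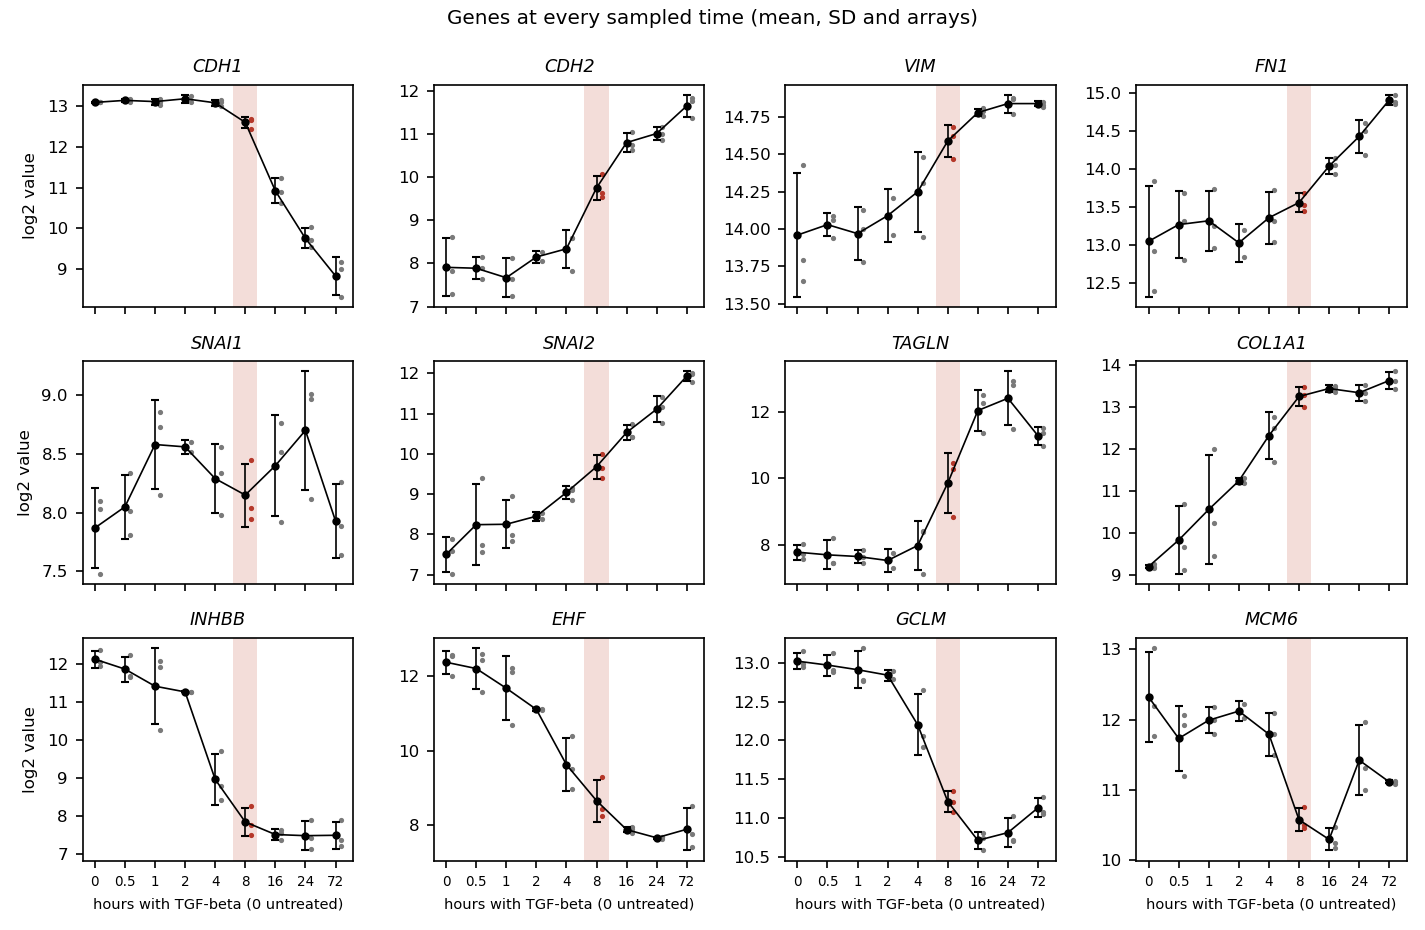
Log2 values (vertical axes, a separate scale in each panel) of 12 genes in all 9 groups, untreated (0 h) to 72 h (horizontal axis, not to scale). Black points and bars are means ± SD over 3 arrays (2 at 2 h), small points are arrays, and the shaded column marks 8 h: CDH1 was 13.09 on average in untreated cells and 12.6 at 8 h before its larger fall, while INHBB and EHF had already fallen most of the way.

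Of 18 collagen genes tested, 11 were higher, 1 lower and 6 not called, with a median of 0.76. The lower call was lost without untreated arrays 2 or 3 or 8 h arrays 1 or 2, and 6 further collagen genes on the array failed the filter. COL1A1, a chain of collagen I, was at 9.2, 9.17 and 9.26 in untreated cells and at 13.29, 13.48 and 13.01 at 8 h, 16.5-fold higher (4.04 ± 0.42, adjusted p = 4.24e-07), with 3 of its 5 probe sets called. The basement membrane chains COL4A1 and COL4A2 rose together. COL4A1 went from 9.76, 8.38 and 8.51 to 12.85, 12.79 and 11.31 (10.8-fold), and COL4A2 from 10.56, 8.81 and 9.4 to 12.68, 12.95 and 10.92 (6.04-fold). Both were higher on 8 h arrays 1 and 2 than on array 3, both rose again from 8 h to 16 h (1.56, adjusted p = 0.033 for COL4A1; 1.68, adjusted p = 0.0461 for COL4A2), and the groups did not overlap for either. COL5A1, a chain of the fibril regulator collagen V, was at 8.5, 7.78 and 7.59 against 11.36, 11.33 and 8.73. The genes COL4A1 and COL4A2 lie head to head on chromosome 13. Their promoter windows, here 250 bases before to 50 after each start (RefSeq, GRCh38.p14), share 226 bases, which is why that of COL4A2 is shown (chr13:110307034-110307333, plus strand), with the shared bases in capitals.
COL4A2: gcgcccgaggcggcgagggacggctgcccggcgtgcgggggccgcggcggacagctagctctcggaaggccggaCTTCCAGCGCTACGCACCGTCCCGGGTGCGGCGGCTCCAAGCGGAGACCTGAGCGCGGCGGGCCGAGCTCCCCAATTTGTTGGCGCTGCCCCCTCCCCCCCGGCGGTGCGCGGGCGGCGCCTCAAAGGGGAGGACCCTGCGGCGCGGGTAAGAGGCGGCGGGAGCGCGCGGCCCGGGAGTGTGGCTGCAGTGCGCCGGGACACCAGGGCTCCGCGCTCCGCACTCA

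Of 28 tested laminins, glycoproteins and proteoglycans, 8 were higher, none lower and 20 not called, with a median of 0.10. THBS1, thrombospondin 1, a matrix glycoprotein that can release TGF-beta from its latent form, rose 13-fold, from 9.4, 8.56 and 8.82 to 12.98, 12.45 and 12.45. MATN2 (matrilin 2, 3.05-fold) and SDC4 (the heparan sulphate proteoglycan syndecan 4, 2.76-fold) followed. Among 18 genes for collagen processing and crosslinking, 7 were higher, none lower and 11 not called, with a median of 0.22. P4HA3, a subunit of prolyl 4-hydroxylase, was 6.34-fold higher, LOX, the crosslinking enzyme lysyl oxidase, 3.98-fold, TGM2, tissue transglutaminase, 2.54-fold, and P4HA2 2.4-fold.

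Proteases and their inhibitors counted 14 higher and none lower of 28, with a median of 0.64. MMP10, a stromelysin, was at 6.89, 6.81 and 6.23 against 9.61, 9.18 and 9.17, so that its untreated signal lay near zero. ADAM19, a membrane-bound metalloprotease, rose 5.72-fold, from 8.25, 8.19 and 7.88 to 10.81, 11.24 and 9.82. PLAUR, the urokinase receptor, rose 3.58-fold, from 10.59, 10.34 and 10.9 to 12.51, 12.55 and 12.29. The gelatinases were near the array median. MMP2 was at 7.6, 7.85 and 8.01 against 8.44, 8.36 and 7.81 (0.39 ± 0.29, adjusted p = 0.383), and MMP9 at 8.15, 8.21 and 7.87 against 9.06, 8.88 and 8.21 (0.64 ± 0.23, adjusted p = 0.0486). The MMP9 call was lost without any one of the untreated arrays or 8 h arrays 1 or 2 (adjusted p from 0.0598 to 0.224). Both rose from 8 h to 16 h, by 1.66 (adjusted p = 0.00101) and 1.3 (adjusted p = 0.00127).

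Of 15 integrin genes, the receptors for matrix, 8 were higher, none lower and 7 not called, with a median of 0.64. ITGA2, the collagen-binding alpha 2 subunit, was at 9.93, 9.87 and 10.02 against 12.11, 12.39 and 11.88 (4.55-fold). ITGAV, the alpha V subunit, whose dimers can activate latent TGF-beta, was at 12.74, 12.57 and 12.6 against 14.01, 13.91 and 13.96 (2.5-fold). ITGB4, the hemidesmosomal beta 4 subunit, was 2.94-fold higher and ITGA11, another collagen-binding subunit, 2.65-fold. Between 4 h and 8 h 5 of the 15 integrins rose and none fell, where 1.21 percent of all genes rose and 1.14 percent fell.

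In the list of actin cytoskeleton and smooth muscle genes, 23 of 36 were higher, 3 lower and 10 not called, with a median of 0.73. MYOCD was at 7.95, 8.51 and 8.37 in untreated cells and at 12.79, 13.11 and 12.71 at 8 h. TNS4, a tensin of focal adhesions, rose 12.5-fold, from 10.57, 8.77 and 9.85 to 13.35, 13.62 and 13.15. DAAM1, a formin that nucleates actin filaments, rose 10.9-fold, from 8.78, 8.72 and 8.88 to 12.49, 12.33 and 11.91. TNS1 was 4.47-fold higher with all 6 probe sets called. Of the 36 genes, 10 rose and 1 fell between 4 h and 8 h, where 1.21 percent of all genes rose and 1.14 percent fell. The list's median difference from the untreated mean was 0.91, 0.81 and 0.59 on 8 h arrays 1 to 3. In lists with no gene called lower, an unadjusted p under 0.05 marked 1 lower gene each among the targets and the laminins and glycoproteins, and 0 among collagen processing genes, proteases, integrins, keratins and ID proteins.

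**Figure D3:**
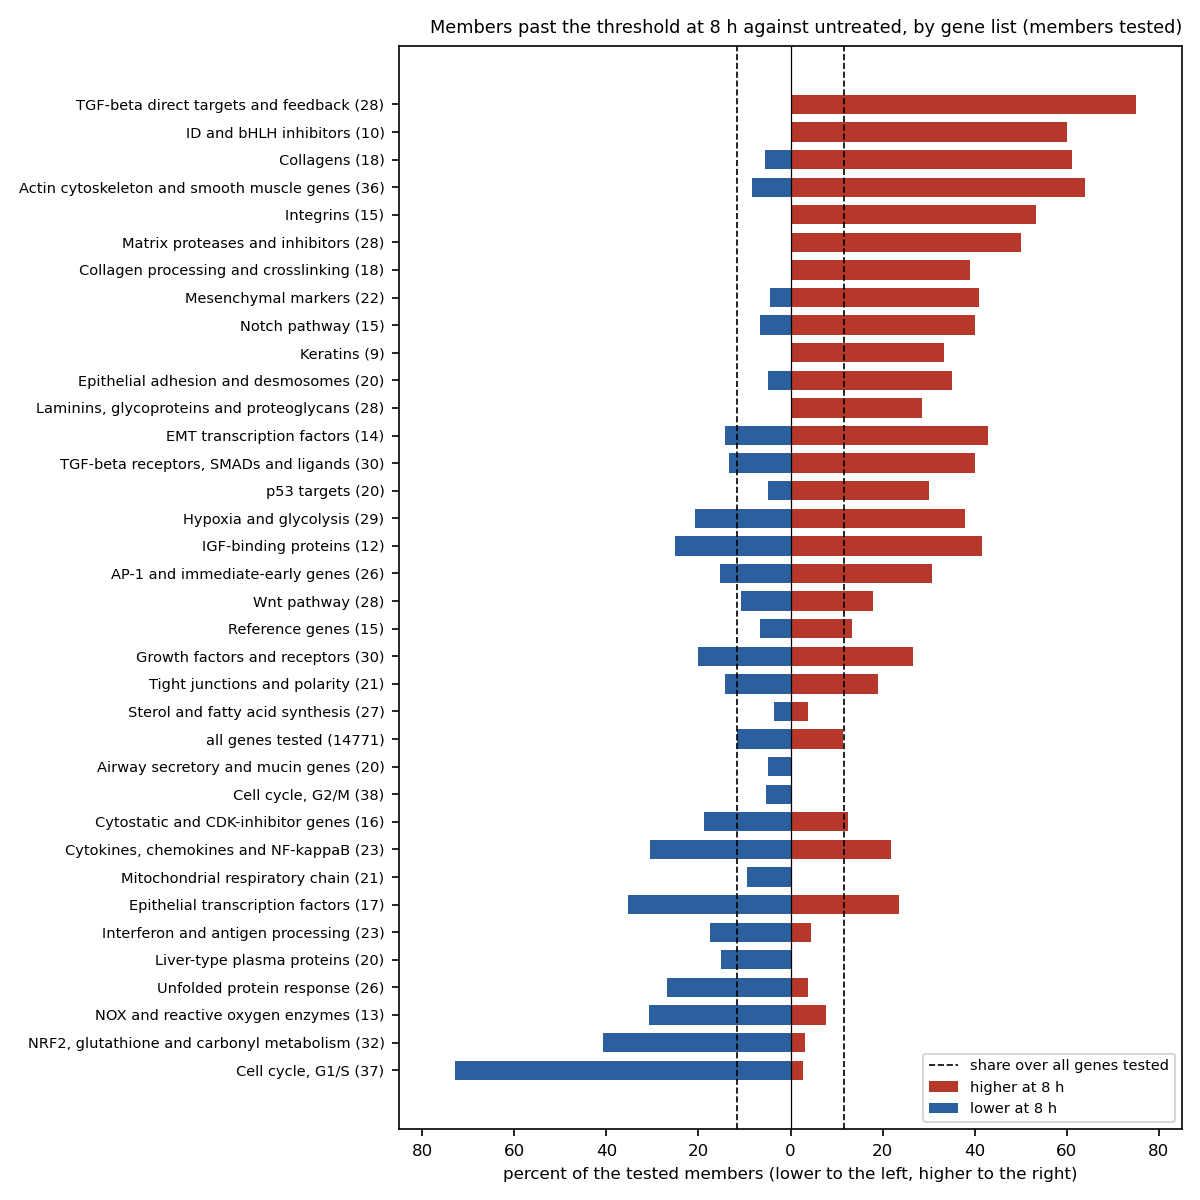
Percent of the tested members of each gene list that were higher (red, to the right) or lower (blue, to the left) at 8 h than in untreated cells. Numbers of tested members are in parentheses and dashed lines mark the shares over all genes, 11.5 percent higher and 11.6 percent lower: target, actin, collagen and integrin lists extend far to the right, G1/S and NRF2 lists to the left.

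Secreted factors moved in both directions, where 11.5 percent of all genes were higher and 11.6 percent lower. Of 30 growth factor and receptor genes, 8 were higher and 6 lower, and the higher count was 5 without 8 h array 1 or in the mean of probe sets. PDGFB, the B chain of platelet-derived growth factor, rose 5.44-fold, from 7.91, 7.55 and 7.39 to 10.41, 10.26 and 9.51, and FGF2, basic fibroblast growth factor, rose 3.01-fold. Of 12 genes in the list of IGF-binding proteins, which carry insulin-like growth factors, 5 were higher and 3 lower. IGFBP1 fell 13.7-fold, from 12.87, 13.35 and 13.12 to 9.61, 8.71 and 9.7. IGFBP3 was at 14.75, 14.77 and 14.74 against 12.96, 13.15 and 12.72, a 3.51-fold fall that partly reverted by 16 h (1.44, adjusted p = 4.28e-05). In contrast, IGFBP5 (7.18, 9.15 and 7.04 against 11.27, 10.65 and 10.9) and IGFBP7 (7.97, 6.34 and 6.88 against 10.36, 10.01 and 8.13) were higher. The groups did not overlap for any of the 4, but for IGFBP7 8 h array 3 came close to untreated array 1. In the mean of probe sets the changes were 0.97 for IGFBP5 and 1.23 for IGFBP7, against 3.15 and 2.44 on the chosen probe sets.

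Chemokines and cytokines counted 5 higher and 7 lower of 23, against 11.5 percent higher and 11.6 percent lower among all genes. CXCL5, a chemokine for neutrophils, fell 7.65-fold, from 12.97, 13.13 and 13.05 to 10.39, 9.79 and 10.16. CCL2, which attracts monocytes, rose 3.88-fold, from 9.28, 9.32 and 9.79 to 11.85, 11.41 and 10.99. The higher count fell to 2 without 8 h array 1 or 2. In the Wnt list 5 of 28 were higher, with WNT9A (2.64-fold), TCF7 (1.93-fold) and WNT3 (1.88-fold), and 3 lower, with RNF43, a ligase that removes Wnt receptors (2.01-fold). Lower calls of that list numbered 0 without 8 h array 2 and 5 without array 3. RNF43 lost its call without untreated array 2 or 8 h arrays 1 or 2. In the mean of probe sets the higher count of the list was 3, and WNT3 was not called (0.52, adjusted p = 0.053).

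AP-1 binding was not measured. Because JUN and JUNB were high, the promoter windows of genes with at least 2-fold changes were searched for the AP-1 motif on both strands. It was searched in the form TGANTCA, where N is any base, over 11375 tested genes that matched the promoter table. A match was present in 29 of 405 windows of higher genes (7.16 percent), 14 of 272 of lower genes (5.15 percent) and 562 of all 11375 (4.94 percent). Windows of CLDN4 (chr7:73830746-73831045, plus strand), with 2 matches, and PLAUR (chr19:43670120-43670419, minus strand), with 1, are shown as examples, with the matched letters in capitals. Other named genes have windows with and without a match, and a match is no evidence that the factor binds.
CLDN4: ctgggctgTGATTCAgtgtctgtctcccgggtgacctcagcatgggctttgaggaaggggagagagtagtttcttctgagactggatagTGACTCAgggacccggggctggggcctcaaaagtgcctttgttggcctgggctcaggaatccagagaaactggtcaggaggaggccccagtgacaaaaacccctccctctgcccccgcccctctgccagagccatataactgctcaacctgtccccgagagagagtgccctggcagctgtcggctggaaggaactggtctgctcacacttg
PLAUR: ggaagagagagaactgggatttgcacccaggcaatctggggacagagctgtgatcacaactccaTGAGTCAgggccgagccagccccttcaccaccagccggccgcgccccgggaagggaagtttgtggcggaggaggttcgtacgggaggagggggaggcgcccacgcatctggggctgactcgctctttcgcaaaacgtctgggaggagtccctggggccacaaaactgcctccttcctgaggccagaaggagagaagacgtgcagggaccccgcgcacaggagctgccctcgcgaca

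Most tested genes of DNA replication were lower. Of 37 tested genes of the G1/S phase, 27 were lower and 1 higher, against 11.6 percent lower among all genes, and the median change was -0.99. MCM2, a subunit of the replicative helicase, was at 12.19, 10.13 and 10.78 in untreated cells and at 9.06, 8.96 and 9.21 at 8 h, 3.88-fold lower (-1.96 ± 0.40, adjusted p = 0.00101). MCM6, another helicase subunit, was at 13.02, 11.76 and 12.19 against 10.49, 10.45 and 10.75 (-1.76 ± 0.26, adjusted p = 3.33e-05). GINS2, a subunit of a helicase cofactor, was at 11.56, 9.97 and 10.64 against 9.22, 8.59 and 9.13. The 8 h arrays lay close together and below all untreated arrays for these genes, whereas the untreated arrays differed widely among themselves. POLE2, a subunit of DNA polymerase epsilon, was 3.04-fold lower. The list's median difference from the untreated mean was 0.65, -0.53 and -0.14 on untreated arrays 1 to 3 and -0.94, -0.99 and -1.04 on the 8 h arrays. Untreated array 1, the highest, decided part of the count: without it, 17 of the 37 were lower. MCM6 fell between 4 h and 8 h (-1.23, adjusted p = 0.0144), as did 3 genes of the list in all, with 1 rising. Of all genes, 1.14 percent fell and 1.21 percent rose in that step. Of 30 G1/S genes with a promoter window, 18 (60.0 percent) held the E2F motif TTTNNCGC on one strand or the other, against 1158 of all 11375 (10.2 percent), 36 of 272 genes at least 2-fold lower (13.2 percent) and 20 of 405 at least 2-fold higher (4.94 percent). The list was chosen by function, so its share describes the list and not the change at 8 h. E2F binding was not measured, and a match is no evidence that the factor binds. Windows of MCM2 (chr3:127598161-127598460, plus strand), MCM6 (chr2:135876394-135876693, minus strand) and GINS2 (chr16:85688905-85689204, minus strand) show the matches in capitals. In MCM2 and MCM6 matches on the 2 strands overlap, giving 2 matches in MCM2 and 4 in MCM6, where GINS2 has 1.
MCM2: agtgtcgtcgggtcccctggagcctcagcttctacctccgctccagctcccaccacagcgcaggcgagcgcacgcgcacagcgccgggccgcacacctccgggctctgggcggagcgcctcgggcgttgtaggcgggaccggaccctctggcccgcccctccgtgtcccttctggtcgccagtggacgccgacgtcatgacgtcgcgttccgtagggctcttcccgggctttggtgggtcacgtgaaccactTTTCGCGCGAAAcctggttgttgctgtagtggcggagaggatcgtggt
MCM6: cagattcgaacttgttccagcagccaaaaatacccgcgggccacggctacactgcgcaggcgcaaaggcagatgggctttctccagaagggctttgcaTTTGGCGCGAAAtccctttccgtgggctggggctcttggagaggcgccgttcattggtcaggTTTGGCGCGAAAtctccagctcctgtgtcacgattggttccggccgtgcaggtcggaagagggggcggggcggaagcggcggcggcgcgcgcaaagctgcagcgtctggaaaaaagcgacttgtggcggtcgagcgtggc
GINS2: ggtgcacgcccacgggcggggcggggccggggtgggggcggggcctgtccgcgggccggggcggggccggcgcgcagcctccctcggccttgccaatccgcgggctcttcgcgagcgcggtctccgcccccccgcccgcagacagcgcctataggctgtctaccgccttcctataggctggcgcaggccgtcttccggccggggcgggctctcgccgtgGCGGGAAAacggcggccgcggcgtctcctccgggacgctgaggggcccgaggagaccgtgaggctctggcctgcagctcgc

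Of 38 G2/M genes, whose products act in mitosis, 2 were called lower and none higher, although the median change was -0.71. At an unadjusted p under 0.05, 4 were lower and 0 higher. The list's median difference from the untreated mean was 0.96, -1.11 and 0.18 on untreated arrays 1 to 3 and -0.31, -0.29 and -1.48 at 8 h, so that the groups overlapped. With the experiment number as a block 4 were lower, and 8 with the numbers of untreated arrays 2 and 3 exchanged, a setting chosen after seeing the data. Paired by the labels the 8 h median was the lower one for arrays 1 and 3, and in the exchanged pairing it was lower in all 3 pairs. The 2 called genes were CDC25B, a phosphatase that activates cyclin-dependent kinases (12.14, 11.88 and 12.13 against 10.95, 11.08 and 10.15), and ECT2, an exchange factor needed for cytokinesis (12.77, 11.63 and 12.35 against 11.19, 10.88 and 11.09). Cytostatic genes counted 2 higher and 3 lower of 16, against 11.5 percent higher and 11.6 percent lower among all genes. CDKN1A, the kinase inhibitor p21, was at 11.67, 12.57 and 11.68 against 13.13, 12.87 and 13.07 (2.07-fold), and CDKN1C, the inhibitor p57, was 2.18-fold higher. CDKN2B, the inhibitor p15 and a known TGF-beta target, failed the filter, with a mean of 6.6. MYC, a growth-promoting factor that TGF-beta is known to repress, was at 12.63, 12.89 and 12.98 against 11.89, 12.17 and 12.18 (-0.75 ± 0.18, adjusted p = 0.00307), though not in the mean of its probe sets (-0.15, adjusted p = 0.685). CDKN2C, the inhibitor p18, was 2.26-fold lower but not without untreated array 1 (adjusted p = 0.142), untreated array 3 or 8 h array 3. The list of p53 targets held 6 higher and 1 lower of 20, among them DDB2 (3.34-fold) and TP53I3 (3.2-fold), for DNA repair and an oxidoreductase, and TP53INP1 (2.25-fold), which was not called in the mean of its probe sets.

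Of 32 genes of the antioxidant and detoxification programme controlled by NRF2, 13 were lower, 1 higher and 18 not called, with a median of -0.29. GCLM, the modifier subunit of the enzyme that begins glutathione synthesis, was at 12.95, 13.15 and 12.98 in untreated cells and at 11.21, 11.07 and 11.35 at 8 h, 3.51-fold lower (-1.81 ± 0.15, adjusted p = 3.99e-08). A further fall was measured between 4 h and 8 h (-0.99, adjusted p = 0.00159). ABCC2, an export pump for conjugates, was 5.53-fold lower, at 12.01, 12.92 and 12.55 against 9.44, 9.9 and 10.73. OSGIN1, a gene induced by oxidative stress, was 3.96-fold lower. HMOX1, heme oxygenase 1, was the 1 member called higher, at 8.95, 9.65 and 8.92 against 11.4, 11.54 and 11.45 (4.89-fold), and it fell again by 16 h (-1.64, adjusted p = 0.023). NQO1, a quinone reductase and a marker of A549 cells, was lower by 1.11-fold, at 14.8, 14.81 and 14.8 against 14.61, 14.67 and 14.67. The call held in part of the settings (adjusted p = 0.0515 without 8 h array 1). Between 4 h and 8 h 6 of the 32 fell, and between 8 h and 16 h 14 fell, none rising in either step. Of all genes, 1.14 percent fell in the first step and 3.38 percent in the second. The antioxidant response element, searched as TGACNNNGC on both strands, was found in 6 of 22 windows of this list (27.3 percent) and 1685 of all 11375 (14.8 percent). The list was chosen for known control by NRF2, so this share describes the list and not the change at 8 h. NRF2 binding was not measured, and a match is no evidence that it binds. The window of GCLM (chr1:93909381-93909680, minus strand) holds 1 match, in capitals, 34 bases before the start.
GCLM: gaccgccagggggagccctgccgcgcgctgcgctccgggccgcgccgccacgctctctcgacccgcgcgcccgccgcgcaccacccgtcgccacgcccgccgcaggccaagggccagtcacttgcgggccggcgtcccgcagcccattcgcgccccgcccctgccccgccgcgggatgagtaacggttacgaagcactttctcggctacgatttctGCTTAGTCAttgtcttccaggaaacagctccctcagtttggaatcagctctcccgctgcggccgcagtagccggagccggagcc

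**Figure D4:**
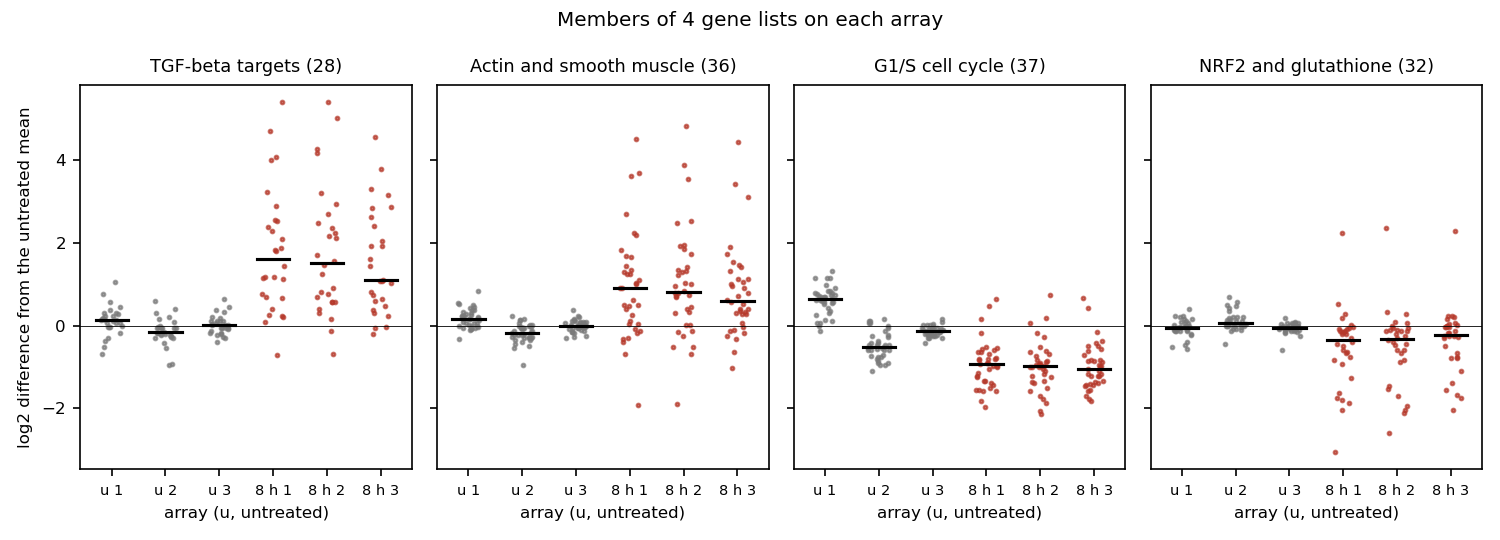
Log2 difference from the untreated mean (vertical axis) of every tested member of 4 gene lists on each of the 6 arrays, untreated in grey and 8 h in red, with the median as a bar and the number of members in parentheses. Medians of the target list are 1.62, 1.51 and 1.09 on the 8 h arrays, and the untreated arrays stand apart from one another in the G1/S list, from 0.65 to -0.53.

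Other metabolic and stress lists held calls in both directions, where 11.5 percent of all genes were higher and 11.6 percent lower. Of 29 genes of hypoxia and glycolysis, 11 were higher and 6 lower. SLC2A3, the glucose transporter GLUT3, was at 10.65, 6.38 and 8.49 against 12.06, 11.82 and 11.14, called with all 5 probe sets despite an untreated range of more than 4 log2 units. PFKFB3, which makes the activator of phosphofructokinase, was 3.38-fold higher, and CA12, a carbonic anhydrase, was 2.75-fold lower with all 6 probe sets. The unfolded protein response counted 7 lower and 1 higher of 26, with CREB3L1 (3.77-fold) and XBP1 (2.65-fold), both transcription factors, and the chaperone DNAJB9 (1.85-fold) and coat protein SEC24D (1.55-fold), which each lost the call without untreated array 3 or 8 h array 2. The 7 lower calls numbered 2 without untreated array 3, 3 without 8 h array 2 and 2 with only the 6 arrays compared. Interferon-induced genes counted 4 lower and 1 higher of 23. IFIT1 was 3.03-fold, IFIT2 2.07-fold and IFIT3 1.73-fold lower, while the factor IRF7 was 2.11-fold higher. Of 13 genes for oxidases and reactive oxygen, 4 were lower and 1 higher. TXNIP, the thioredoxin-binding protein, was 2.65-fold lower, CAT (catalase) 1.53-fold and PRDX6 (a peroxiredoxin) 1.22-fold, and GPX1 (glutathione peroxidase 1) was 1.31-fold higher. Each of these 4 lost the call without untreated array 2, and without that array the list counted 0 lower.

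Liver-type plasma proteins, several of which A549 cells make, had 3 lower calls of 20 and none higher. Among all genes 11.6 percent were lower and 11.5 percent higher. With the experiment number as a block, or without 8 h array 3, 5 of the list were lower. The 3 genes called lower with all arrays and no block were chains of fibrinogen. FGA fell 9.99-fold, from 11.18, 11.89 and 11.96 to 8.11, 8.16 and 8.8. FGG went from 10.69, 11.67 and 11.83 to 8.27, 8.58 and 10.56, and FGB from 12.06, 12.45 and 12.7 to 9.53, 10.21 and 11.44. For FGB and FGG, 8 h array 3 lay more than 1 log2 unit above the other treated arrays, and for FGG it came close to the lowest untreated array. In the airway secretory list 1 of 20 was lower, MUC13, a membrane mucin (12.19, 13.24 and 12.95 against 10.8, 11.28 and 12.18), and that call was lost without untreated arrays 2 or 3 or 8 h arrays 1 or 2. AGR2, a secretory disulphide isomerase of the same list, was at 14.76, 14.84 and 14.92 against 14.67, 14.5 and 14.71 (-0.21 ± 0.30, adjusted p = 0.678). Of 27 genes of sterol and fatty acid synthesis, ELOVL6, a fatty acid elongase, was 2.82-fold lower and ACLY 1.18-fold higher, and of 21 respiratory chain genes CYC1 and UQCRFS1 were lower, by 1.28-fold and 1.11-fold. The calls of ACLY, CYC1 and UQCRFS1 were lost when single arrays were left out. Among 15 genes often used as references, 2 were higher, ACTB (1.1-fold) and YWHAZ (1.14-fold), and 1 was lower, and neither higher call held in every setting tried.

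Compared with the arrays at 4 h, 178 genes were higher at 8 h (1.21 percent) and 168 lower (1.14 percent). With the experiment number as a block the counts were 313 and 360, while leaving out single arrays gave 35 to 244 higher and 37 to 267 lower, the lowest without 4 h array 3. The largest rises were RASGRP3, a relative of RASGRP1 (2.19, adjusted p = 7.55e-05), COL4A1 (2.03), COL5A1 (1.98), IGFL1, an IGF-like secreted peptide (1.88), and TAGLN (1.88). The largest falls were SSTR5-AS1 (-2.59, adjusted p = 0.0209), SLC51B (-2.55, adjusted p = 0.000638), TM4SF20 (-2.08), FGG (-1.83) and RDH10 (-1.75). From 8 h to 16 h 5.37 percent of the genes differed, of which 294 rose (1.99 percent) and 499 fell (3.38 percent). With the block 455 rose and 734 fell, and without 8 h array 3 the counts were 127 and 220. IGFL1 rose further (3.67, adjusted p = 2.21e-05), followed by DHRS2, a dehydrogenase (2.80), CORO2B, a coronin that binds actin (2.80), IGFBP5 (2.71) and IGFBP7 (2.62). TSPAN8, a tetraspanin (-2.92), FGB (-2.57), RARRES1, a retinoid-responsive gene (-2.45), DDC, an aromatic amino acid decarboxylase (-2.37), and AGR2 (-2.31) fell most, and TSPAN8, RARRES1 and AGR2 had not passed the test at 8 h.

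In the authors' deposited table, 1530 probe sets were selected at 8 h at an unadjusted p below 0.001 and over 2-fold, 1005 higher and 525 lower. For 503 of the 546 genes called higher at least 2-fold here (92.1 percent) and 276 of the 341 called lower (80.9 percent), the probe set used for the gene was among them, from the same arrays. The authors' deposited table gives INHBB a ratio of 0.0514 and CDH1 a ratio of 0.708 at 8 h.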

How the data were processed

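RNA from 26 cultures of A549 cells was measured on 1 array each, and 6 of these arrays were compared, with the 4 h and 16 h groups beside them. The values the authors deposited are log10 values, per the file headers log10 of a trimmed mean of perfect-match minus mismatch differences (20 percent trimmed, program readaffy, scale constant 1000) with an offset of 100, quantile-normalized between arrays. Per the file headers, the deposited tables also give the authors' p-values from a model with experiment and time, their fold changes as ratios, a score of array darkness and the count of probe sets detected. The 2 deposited copies of the values differed by at most 5.00e-10. Individual detection calls were not used here.

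Values were converted to log2, and 1.23 percent lay at the floor. Of 54675 probe sets, 62 controls, 14084 lacking a symbol and 1208 of several genes were set aside, and 38088 of 39321 with 1 gene were renamed through their Entrez numbers. Of 19539 genes, 10314 had more than 1 probe set and took the one with the highest mean (probe sets flagged for cross-hybridization came last). Genes above the array median on at least 2 of 26 arrays were tested, 14771 in all, which removed 4768. A gene may pass through treated arrays alone, so counts over tested members are descriptions.

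The tests used limma 3.58.1 (lmFit, then eBayes with trend) under R version 4.3.3 with the package data.table, release 1.17.8, in a fit of 9 group means to all 26 arrays that leaves 17 residual degrees of freedom, two-sided, with Benjamini-Hochberg adjustment at 0.05. The fit was tested on simulated data. The p-values measure the spread between arrays within groups, and the number of arrays limits their precision. Per the labels the array number marks 1 of 3 experiments, but in the authors' tables the running array numbers of untreated arrays 2 and 3 stand in each other's place, so block values involving untreated cells carry this doubt. The deviations of same-numbered arrays from their group means correlated at 0.314, 0.288 and 0.509 between 8 h and 4 h and at 0.274, 0.107 and 0.395 between 8 h and 16 h, but at 0.193, -0.191 and -0.087 between 8 h and untreated, where 8 h array 3 correlated best with untreated array 2 (0.342). The block was an alternative, not a term of the fit.

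The genes compared and the 40 lists were chosen with earlier results of these data known. Named were the 15 largest rises and falls among called genes whose groups do not overlap, up to 4 called members of each list by size of change, members of lists with under 3 calls (those not called are mostly given as counts), the 5 largest rises and falls of 8 h against 4 h and of 16 h against 8 h, and SKIL, SMAD7, CDH1, CDH2, FN1, VIM, SNAI1, SNAI2, ZEB1, ZEB2, TWIST1, EPCAM, KRT8, KRT18, OCLN, MMP2, MMP9, ACTA2 and TAGLN. A few genes taken by it are left out here. Promoter windows came from RefSeq (GRCh38.p14) and matched 11375 of the 14771 genes. Alternatives covered the block, other filters, normalizations and offsets, eBayes settings, the mean of probe sets, stricter thresholds and leaving out each array.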

Additional observations from a re-analysis of the deposited data

Results flagged for a closer look

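Of 6492 tested probe sets without a gene symbol, which no comparison above used, 439 were higher and 305 lower at 8 h than in untreated cells (11.5 percent in all), where 19.7 percent of the probe sets with 1 gene were called. What these probe sets detect was not tested.

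The change against untreated cells differed between neighbouring times, by the direct test of 1 time against the other, for the following genes. From 4 h to 8 h the difference, later minus earlier time, was positive for RASGRP3 (2.19), COL4A1 (2.03), COL5A1 (1.98), IGFL1 (1.88) and TAGLN (1.88). It was negative for SSTR5-AS1 (-2.59), SLC51B (-2.55), TM4SF20 (-2.08), FGG (-1.83) and RDH10 (-1.75). RASGRP3 was at 6.92, 6.6 and 7.18 in untreated cells and at 10.54, 10.23 and 9.35 at 8 h, and IGFL1 at 7.21, 7.29 and 7.37 against 10.46, 10.02 and 8.09. From 8 h to 16 h the same difference was positive for IGFL1 (3.67), DHRS2 (2.8), CORO2B (2.8), IGFBP5 (2.71) and IGFBP7 (2.62), and negative for TSPAN8 (-2.92), FGB (-2.57), RARRES1 (-2.45), DDC (-2.37) and AGR2 (-2.31). DHRS2 was at 8.58, 8.77 and 7.38 on the 8 h arrays, and CORO2B at 8.86, 8.64 and 7.75. In IGFL1, DHRS2 and CORO2B the lowest value at 8 h was that of array 3, and without that array the counts of rises and falls to 16 h were 127 and 220 in place of 294 and 499.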

How the results depend on the processing

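Of 144 called genes that meet the rule for named genes, 118 kept their direction and their call in all 18 settings tried, 26 lost the call in at least 1 setting, 22 of them when a single array was left out, and 0 changed sign. Of genes not called, EPCAM (-0.10; -0.25 to 0.14 with single arrays left out) was at 0.14 without the 3 arrays marked r. Against untreated cells, single arrays left out gave 1347 to 1605 higher and 1274 to 1584 lower, and only the 6 arrays compared gave 1005 lower in place of 1716. An adjusted p under 0.01 left 1128 higher and 951 lower, and a change of at least 2-fold 546 and 341. The comparisons of neighbouring times depended on more settings. For 8 h against 4 h (178 higher and 168 lower), the replicate block gave 313 and 360, only the groups compared 27 and 38, an adjusted p under 0.01 47 and 42, at least 2-fold 48 and 34, single arrays left out 35 to 244 and 37 to 267, and the arrays marked r left out 287 lower. For 16 h against 8 h (294 and 499), the block gave 455 higher, only the groups compared 166 and 271, an adjusted p under 0.01 113 and 208, at least 2-fold 86 and 124, single arrays left out 127 to 267 and 220 to 382, and the arrays marked r left out 119 and 242. These 2 settings were chosen after seeing the data: leaving out the arrays marked r, and a block with the numbers of untreated arrays 2 and 3 exchanged, which gave 372 and 448 for 8 h against 4 h and 516 and 846 for 16 h against 8 h. Fits without a lone array assume that groups of 2 vary like the others. Fewer arrays did not always give fewer calls. Without 4 h array 1, 8 h against 4 h gave 244 higher and 261 lower, more than with all arrays. The causes of these differences were not tested. Besides the values printed with the results, the block ended no call of a named gene. The median change over all genes stayed between -0.04 and -0.02 under every scaling. Signals near the zero level of 6.64 limit the folds of weakly expressed genes.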

Other observations

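The gene families named here were chosen after their values were seen and have no test as lists. All 5 tested metallothionein genes, which encode small proteins that bind zinc and copper, were higher at 8 h, with a median change of 2.71. MT1X was at 12.07, 10.13 and 10.31 in untreated cells and at 13.95, 13.94 and 13 at 8 h (2.79 ± 0.39, adjusted p = 1.39e-05), and MT2A at 13.28, 11.94 and 12.05 against 14.55, 14.65 and 13.99 (1.97 ± 0.26, adjusted p = 7.42e-06). Untreated array 1 was the highest of the untreated arrays for both. These genes are near-identical in sequence, so that probe sets may read several of them. All 3 tested ephrin-A ligands, membrane-bound ligands of Eph receptors, were higher, EFNA1 by 1.40 ± 0.21, EFNA3 by 1.34 ± 0.21 and EFNA4 by 1.02 ± 0.17. Of 6 HOXD genes, HOXD9, HOXD10 and HOXD11 were higher, with HOXD11 at 6.74, 6.88 and 7.59 against 9.78, 9.49 and 9.35 (2.47 ± 0.26, adjusted p = 4.82e-07), while HOXD8 was at 9.25, 9.2 and 9.21 against 8.96, 8.87 and 9.14 (-0.23 ± 0.13, adjusted p = 0.224).

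Of 15 tested alpha and beta tubulin genes and pseudogenes, 7 were higher and 0 lower at 8 h. TUBA4A was at 12.59, 12.36 and 12.49 against 14.14, 14.02 and 14.13 (1.62 ± 0.13, adjusted p = 2.27e-08). Mitochondrial ribosomal protein genes gave 23 lower and 0 higher of 76, with a median of -0.23, where 11.6 percent of all genes were lower. None of 77 cytosolic ribosomal protein genes was called by limma (median -0.01), with 1 higher and 2 lower at an unadjusted p under 0.05. Among single genes, the orphan receptor NR0B1 fell from 12.43, 12.61 and 12.51 to 9.84, 9.69 and 9.94, the bile acid receptor NR1H4 from 8.5, 10.03 and 9.48 to 7.5, 7.11 and 8.16, the export pump ABCG2 from 11.2, 10.73 and 11.26 to 8.88, 9.04 and 9.51, and MITF, a transcription factor, from 11.7, 11.57 and 11.78 to 9.82, 9.5 and 9.98. RET, a receptor tyrosine kinase, rose from 7.14, 6.97 and 7.43 to 9.79, 9.86 and 8.91. SOX8, a transcription factor, was at the floor on 2 untreated arrays and at 5.73 on the third, and at 8.66, 8.93 and 8.83 at 8 h.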
